A study of Mus musculus with 31 samples.

Results

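Expression in the spleen of Dll1 mutant mice, taken as heterozygous as in the study, was compared with a pool of wild-type spleen RNA on dual-colour cDNA arrays. The comparison comprises the 8 spleen arrays of 31 arrays in the series, and the other arrays cover thymus (7), liver (8) and brain (8) of the same mice. Spleen RNA of 4 male mutant mice aged 17 weeks was hybridized together with the pooled RNA of male wild-type animals aged 18 weeks, which appears on every array and counts as 1 control sample. Every mutant mouse had 2 arrays, its RNA labelled with Cy5 on one and with Cy3 on the other. The labels name neither the allele nor whether the mutants are heterozygous. The study's methods describe a targeted allele with a lacZ insertion in Dll1 on the C3HeB/FeJ background and cite another series record and array platform, so the animals measured here need not be those of the study. The animals listed for the pool number 4, whereas the protocol speaks of 6. A single pool leaves out the spread between wild-type mice, and its age cannot be told apart from the genotype.

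Dll1 is a membrane-bound ligand of the Notch receptors. On binding, the receptor is cut by Adam10 and then by gamma-secretase, and its intracellular part joins Rbpj in the nucleus to switch on genes such as those of the Hes and Hey families. In mouse spleen, Dll1 on stromal cells acts on Notch2 of B cells, and this signal is required for marginal zone B cells. Mature B cells, red pulp macrophages, T cells and erythroid cells all contribute RNA to whole spleen. In such bulk RNA, fewer cells of a type and less RNA per cell cannot be told apart.

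The deposited values are log2 ratios, 1 per spot and array. A negative value is read here as lower in the mutant spleen than in the pool. This direction is likely and not certain: the labels list the mutant RNA first on each array and the study gives its ratios as mutant against wild type, but neither states how the deposited ratio was formed. If it was formed as pool over mutant, every sign below turns. If it was formed as Cy5 over Cy3, the values of the arrays with mutant RNA in Cy3 turn. The result of that reading is given with the main gene groups. Each array held 1 repeated extreme value, positive with mutant RNA in Cy5 and negative with mutant RNA in Cy3, in every organ. In spleen it was 15.99 to 17.68 and -17.51 to -16.07, in that order. With mutant RNA over pool, these signs make Cy3 the weaker channel at those spots on every array. With Cy5 over Cy3, they make the pool the weaker sample on every array, in either dye. Which of these holds was not tested. Gene names were inferred from a probe table by a displacement of 11 rows. In spleen, mean ratios of different rows given the same gene correlated with r = 0.139 over 3734 pairs of rows at this displacement, against r = 0.0019 with the names as listed. Toward the end of the table the displacement is uncertain, and rows from that last stretch are pointed out. Ratios carry no level of expression, so the labelled tissue could not be checked against its defining markers.

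A value in at least 3 of the 4 mice was available for 19591 of 20794 rows, among them 12031 named rows of 8680 genes. The spleen arrays of mouse 1 stood apart. Its arrays lacked 37.9% (mutant RNA in Cy5) and 24.8% (mutant RNA in Cy3) of values, against 1.15% to 2.95% on the arrays of the other mice, and the standard deviation of its ratios was 1.90 and 1.39, against 0.66 to 0.86. Hence 10104 of the 10501 rows with 3 mice lack mouse 1. Mean ratios of any pair of mice, mouse 1 included, correlated with r = 0.13 to 0.19 over all rows, given as a description. The 2 arrays of a mouse did not correlate (r = -0.080 to 0.031). Arrays of different mice with mutant RNA in Cy3 correlated with r = 0.10 to 0.32, and those with mutant RNA in Cy5 with r = -0.007 to 0.10. Arrays of different mice in opposite orientations correlated with r = -0.09 to 0.14. The highest of these paired the Cy5 array of mouse 1 with the Cy3 arrays of mice 2 to 4 (r = 0.13 to 0.14).

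No row passed an adjusted p of 0.05 in spleen (limma, Benjamini-Hochberg, 0 of 19591 rows, 0%, smallest adjusted p = 0.414). Before adjustment, 1000 rows (5.1%) had p under 0.05 and a lower ratio, and 1091 rows (5.57%) had p under 0.05 and a higher ratio in the mutant spleen. Centring each array on its median turned this split to 1423 lower and 779 higher rows, or 64.6% lower in place of 47.8%. Accordingly, no single gene below is reported as changed, and its values are given for the 4 mice with the adjusted p of the fit.

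Genes of the translation machinery lay lowest as a group. Of 60 cytosolic ribosomal proteins with a value, which form the large and small ribosomal subunits, 58 had a mean ratio below 0, and 50 of the 57 with all 4 mice were below 0 in each mouse. Over all genes, 3828 of 8680 (44.1%) had a mean ratio below 0. Over all genes with 4 mice, 14.3% were below 0 in each mouse and 11.5% above 0 in each. The median log2 ratio of the ribosomal proteins was -0.70, -0.61, -0.49 and -0.85 in mice 1 to 4, with a median of gene means of -0.63 against 0.05 over all 8680 genes. At an unadjusted p under 0.05, 69 of their 90 rows were lower and 1 was higher, and none passed the adjusted threshold. Without mouse 1 the median was -0.64.

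The lowest mean ratio in the group was that of Rpl12, a protein of the ribosomal stalk base, with -1.37, -1.13, -0.88 and -1.39 in mice 1 to 4 (mean -1.19 ± 0.24, SD, n = 4, limma adjusted p = 0.414). Rpl5, which binds the 5S ribosomal RNA, had -1.13, -1.01, -0.75 and -1.06, and Rps7, of the small subunit, had -1.31, -0.76, -0.72 and -0.85. All 4 mice of these 3 genes were below 0, with mouse 3 the closest to 0. Rplp0, the stalk protein, was carried by 2 rows with means of -1.19 ± 0.46 and -0.66 ± 0.23 (SD, n = 4). Ribosomal protein genes have many processed copies in the mouse genome, and their part in the signal of cDNA probes was not tested.

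**Figure D1:**
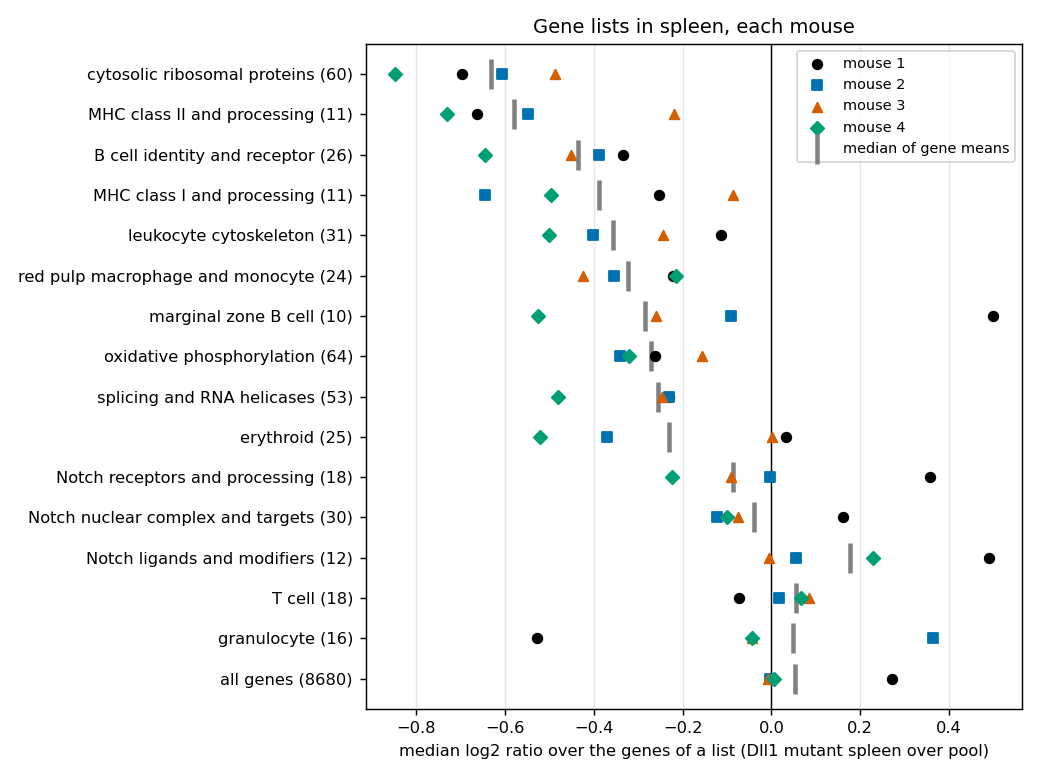
Median log2 ratio of mutant spleen over pool (x axis) for 15 gene lists and for all genes (y axis, number of genes with a value in parentheses). Coloured symbols are the medians of the 4 mice and grey bars the median of the gene means. The 4 mice lie below 0 for ribosomal proteins, antigen presentation, B cell, macrophage, cytoskeleton, oxidative phosphorylation and splicing genes, whereas the median over all genes is near 0 in mice 2 to 4 and 0.27 in mouse 1.

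B cell genes were the next group of interest, since marginal zone B cells depend on Dll1. Of 42 genes listed for B cell identity and the B cell receptor, 26 had a value, 22 of these had a mean ratio below 0, and 11 of the 22 with 4 mice were below 0 in each mouse. None was above 0 in each mouse. Their median was -0.33, -0.39, -0.45 and -0.65 in mice 1 to 4, and -0.43 over the gene means. This median was -0.48 to -0.34 with 1 mouse left out and -0.14 with lone arrays kept, where a mouse with 1 of its 2 arrays is used. At an unadjusted p under 0.05, 13 of 38 rows were lower and 0 were higher, and 0 passed the adjusted threshold.

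Ms4a1, which encodes the B cell surface protein CD20, had log2 ratios of -1.08, -1.82, -1.26 and -1.20 in mice 1 to 4 (mean -1.34 ± 0.33, SD, n = 4, limma unadjusted p = 0.000337, adjusted p = 0.414). This mean corresponds to 0.395 times the level of the pool. Pou2af1, a B cell coactivator of octamer-binding factors, varied less, with -0.77, -0.73, -0.94 and -0.78. Blnk, the adaptor of the B cell receptor, ranged widely with -1.98, -0.71, -0.24 and -1.13. Cd37, a tetraspanin of B cells, had -1.13, -0.48, -0.73 and -0.94, and Plcg2, the phospholipase downstream of the receptor, had -0.40, -0.46, -0.56 and -0.49. Thus the 4 mice of each of these 5 genes were below 0, in Plcg2 and Pou2af1 within a narrow range.

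Cd79b, a signalling chain of the B cell receptor, was at -0.36, -0.63, -0.01 and -0.65, so that mouse 3 was at the level of the pool. Cd22, an inhibitory receptor of B cells, lacked mouse 1 and had -0.69, -0.76 and -0.68 in mice 2 to 4. The 2 rows of Fcrla, an Fc receptor-like protein of B cells, had means of -0.52 and -0.51. In contrast, Vpreb3 had 0.73, -0.08, 0.50 and -0.29, and Btk, a kinase of the receptor pathway, had 0.56, 0.10, -0.60 and -0.02, with the mice on both sides of 0. Cd79b, Cd22, Cd37 and Ms4a1 are the defining markers of B cells that had a value, and each had a mean below 0.

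Genes of antigen presentation by MHC class II lay lower too. These proteins load peptides onto class II molecules, which in spleen are carried by B cells, dendritic cells and macrophages. Of 17 listed genes, 11 had a value and 8 were below 0, and 5 of the 9 with all 4 mice were below 0 in each. Their median was -0.66, -0.55, -0.22 and -0.73 in mice 1 to 4, with a median of gene means of -0.58 (-0.53 without mouse 1). At an unadjusted p under 0.05, 8 of 16 rows were lower and 0 were higher.

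Ctss, the protease that trims the invariant chain, had -0.99, -1.20, -0.92 and -0.80 in mice 1 to 4 (mean -0.98 ± 0.17, SD, n = 4, limma adjusted p = 0.414). The invariant chain itself, Cd74, was carried by 3 rows with means of -0.71, -0.96 and -0.91, and all 12 values of mice were below 0. The beta chains H2-Eb1 (-0.66, -1.18, -0.56 and -1.12) and H2-Ab1 (-0.56, -0.73, -0.18 and -1.004) and the peptide editor H2-DMa (-0.73, -0.51, -0.34 and -0.73) were below 0 in each mouse, again with mouse 3 closest to 0. In contrast, H2-Oa had 2.52, -0.57, 0.1 and -0.13, and the first row of H2-DMb1 had -1.07, 0.24, -0.42 and 0.55. The second row of H2-DMb1, which lacked mouse 1, had a mean of 0.08. The transcriptional regulators Rfx5 and Rfxank had mice on both sides of 0 too. Rfx5 had 0.22, 0.05, 0.32 and -0.51, and the 3 rows of Rfxank, which lacked mouse 1, had values from -0.38 to 0.60. B2m, the light chain of MHC class I, was at -0.999, -0.89, -0.84 and -0.88, and 9 of 11 class I genes had a mean below 0.

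**Figure D2:**
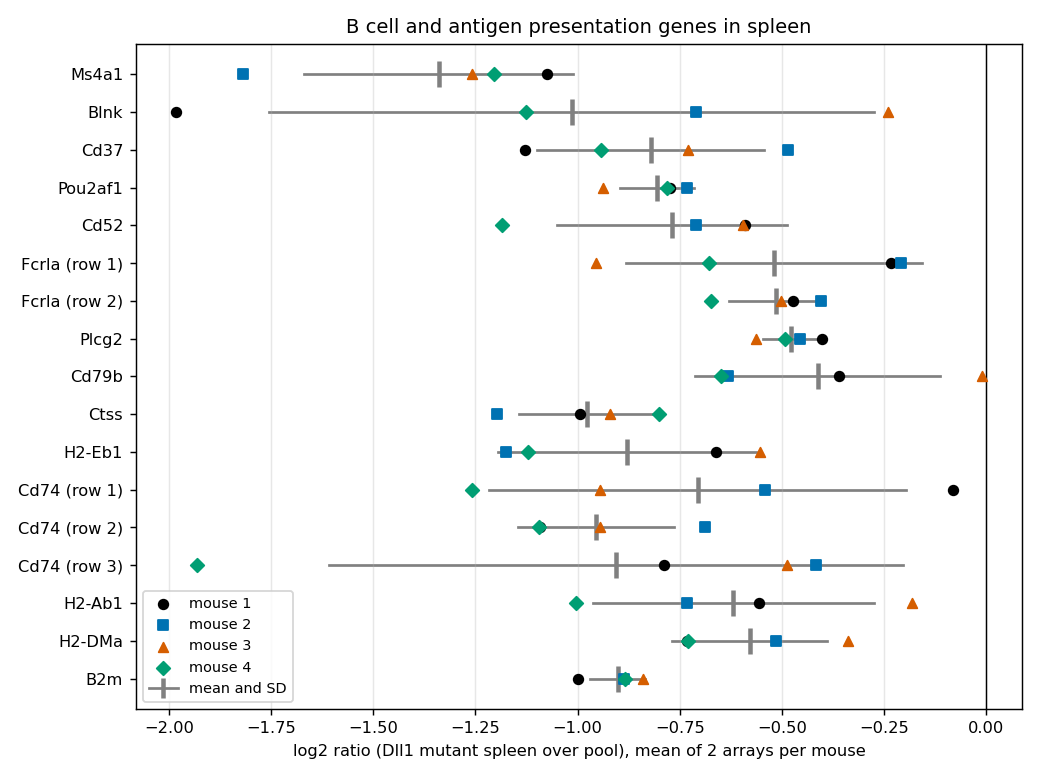
Log2 ratio of mutant spleen over pool (x axis) for single rows of B cell and antigen presentation genes (y axis). Symbols are the 4 mice, each the mean of its 2 arrays, and grey bars give mean and SD. Only rows below 0 in each mouse are drawn, with mouse 3 of Cd79b at -0.01 and mouse 1 of the first Cd74 row at -0.08 the closest to it. Genes of these groups with mice on both sides of 0, such as Btk, Vpreb3 and H2-Oa, are not drawn.

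A promoter of MHC class II genes and of ribosomal protein genes is shown, because most members of both groups lay on the same side of 0. Sequences are the bases before the annotated start of transcription (RefSeq, GRCm38.p6), in the direction of the gene, with matches to 2 short motifs in capitals. The first motif is CCAAT, known as the Y box in MHC class II promoters, and the second is CCGGAAG, bound by factors of the ETS family; either strand was accepted.
H2-Eb1, chr17:34305747-34305866, plus strand, 2 matches to the Y box: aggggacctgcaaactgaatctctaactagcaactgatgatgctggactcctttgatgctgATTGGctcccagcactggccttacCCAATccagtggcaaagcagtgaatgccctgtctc
Rps7, chr12:28635954-28636073, minus strand, 1 match to the ETS motif: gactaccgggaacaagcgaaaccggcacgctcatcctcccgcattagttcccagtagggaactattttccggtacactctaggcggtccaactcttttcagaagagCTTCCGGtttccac
The Y box letters occurred within 250 bases before the start in 11 of 15 windows (73.3%) of 13 MHC class II genes, against 33.9% of 32841 windows of all genes. The ETS letters occurred in 19 of 72 windows (26.4%) of 61 ribosomal protein genes, against 6.91% of all windows. The octamer ATTTGCAT occurred in 2 of 36 windows (5.56%) of 28 B cell genes, against 1.6%. A match is a description of the letters, and binding at these places was not measured.

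Among named rows with the same sign in all 4 mice, a myeloid gene had the smallest p in spleen. Lyz2, the lysozyme of macrophages and granulocytes, had -1.27, -1.27, -1.28 and -1.24 in mice 1 to 4 in one row (mean -1.26 ± 0.020, SD, n = 4, limma unadjusted p = 0.000147, adjusted p = 0.414). A second row of Lyz2 had -1.15, -1.26, -0.76 and -0.95. Plac8, abundant in granulocytes and other leukocytes, had -1.25, -1.24, -1.44 and -0.93. Of 24 genes of red pulp macrophages and monocytes, 18 were below 0, with a median of -0.22, -0.35, -0.43 and -0.21 in the mice, whereas granulocyte genes had a median of 0.05 with 7 of 16 below 0. Lgals3, a lectin of macrophages, had 1.98, -0.28, -0.14 and 0.99, with the mice on both sides of 0.

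The markers of other cells of the spleen and of neighbouring tissue were examined next. Of 18 T cell genes 8 were below 0, close to the 44.1% of all genes, with medians of -0.07, 0.02, 0.09 and 0.07 in mice 1 to 4. Cd28, Cd3g and Cd3e had means of -0.67, -0.40 and -0.14, and Cd28 was below 0 in each mouse. The rows of Cd28 and Cd3e come from the last part of the table. Cd247 and Cd8b1 had means of 1.02 and 0.51, with 3.72 and 2.88 in mouse 1 and at most 0.37 and -0.21 in mice 2 to 4. Of 25 erythroid genes 19 were below 0, but their medians of 0.03, -0.37, 0.00 and -0.52 went with the mouse. The 6 rows of Hba-a1, a globin gene, had means between -0.66 and -0.51, with mouse 4 lowest in each row (-1.29 to -1.02). Genes of the exocrine pancreas, which adjoins the spleen, had medians of 0.60, -0.53, -0.41 and -0.49 with 8 of 11 below 0. The part of these cell types in the values of B cell and macrophage genes was not tested.

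Housekeeping groups followed the ribosomal proteins at smaller size. Nuclear genes of oxidative phosphorylation had a median of -0.27 with 55 of 64 below 0, and splicing factors and RNA helicases of -0.26 with 42 of 53 below 0. Genes of the leukocyte cytoskeleton had a median of -0.36 with 23 of 31 below 0. Brain lay on the same side for oxidative phosphorylation (median -0.31, 60 of 64 below 0) and for splicing (-0.21, 37 of 53 below 0). These 2 lists were therefore not particular to spleen. Cytoskeleton genes had a median of 0.08 in brain, with 10 of 31 below 0. Tmsb4x, which binds monomeric actin, had -1.22, -0.79, -0.54 and -0.84, and the splicing factor Srsf5 had -0.80, -1.25, -0.75 and -0.99 in its first row. Actb, encoding beta-actin, had row means of -0.71 and -0.61. The genes of highest mean ratio in these groups, such as Ndufb3 of respiratory complex I at 0.73, show that not every member lay below 0.

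Notch pathway genes are given by their role. Of 12 ligands and modifiers, 3 were below 0, with a median of 0.18. Dll1 itself was carried by 2 rows that disagreed. The first had 0.64, 0.34, 1.60 and 0.06 in mice 1 to 4 (mean 0.66 ± 0.67, SD, n = 4, limma adjusted p = 0.471), and its arrays ranged from -1.90 to 3.24. The second, from the uncertain last part of the table, had 0.21, -1.65, -0.30 and -0.54 (mean -0.57 ± 0.79, SD, n = 4, limma adjusted p = 0.522). Neither gave a level of Dll1 beyond the spread of the mice. Whether the probes lie outside the targeted part of Dll1 is not stated in the labels or methods, so these rows do not check the genotype. Lfng, a glycosyltransferase that modifies Notch receptors, had 0.86, 0.78 and 0.35 in mice 2 to 4 in one row, and 1.02, 0.44, -0.17 and -0.17 in the other.

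Of the receptors and their processing enzymes, 11 of 18 were below 0 with a median of -0.09. Notch2, the receptor of marginal zone B cells, had -0.67, -0.48, -0.47 and -0.60 in mice 1 to 4 (mean -0.55 ± 0.098, SD, n = 4, limma unadjusted p = 0.013, adjusted p = 0.414). Adam10, the protease that cuts Notch receptors, had -0.48, -0.56, -0.66 and -0.70. Both genes were below 0 in each mouse. Notch2 averaged -0.16 on the arrays with mutant RNA in Cy5 and -0.95 on those with mutant RNA in Cy3, and Adam10 -0.16 and -1.04, so that their low SD is also that of means over unlike orientations. Notch1 had 0.79, -0.05, 0.28 and -0.01, so that 2 mice lay at the pool. Dtx1, a Deltex protein used as a marker of Notch2 signalling in B cells, lacked mouse 1 and had -0.53, -0.40 and -0.87 in mice 2 to 4.

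Of 30 genes of the nuclear complex and the targets, 17 were below 0 with a median of -0.04. The target Hes5 had -1.004, -0.17, -0.66 and -0.54 in mice 1 to 4 (mean -0.59 ± 0.35, SD, n = 4, limma adjusted p = 0.43). Hes1, a target in many cell types, had 0.24, -0.38, -0.07 and -0.24, and Rbpj, the DNA-binding partner of the cleaved receptor, had 0.50, 0.29, -0.43 and 0.20, both with mice on either side of 0. Hey1 was carried by 3 rows with means of -0.65, 0.01 and 0.24, of which only the first lies outside the last part of the table. Of the 10 marginal zone genes with a value, 6 had a mean below 0, against 44.1% of all genes. Among them were S1pr3 and the receptor and processing genes Notch2, Adam10 and Dtx1 given above. Nr4a1 had the largest mean in size, 0.88, with 2.07, 1.28, -0.01 and 0.19 in mice 1 to 4. Lfng and Rbpj had means of 0.52 and 0.14, and the tetraspanin Cd9 was at 0.73, 0.59, 0.76 and -0.13. The median of the marginal zone genes was 0.50 in mouse 1 and -0.09, -0.26 and -0.52 in mice 2 to 4. Over gene means it was -0.28, and -0.55 without the last part of the table. Plasma cell and immunoglobulin genes had a value for 8 of 26, with 5 below 0 and 0 of 9 rows at an unadjusted p under 0.05.

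**Figure D3:**
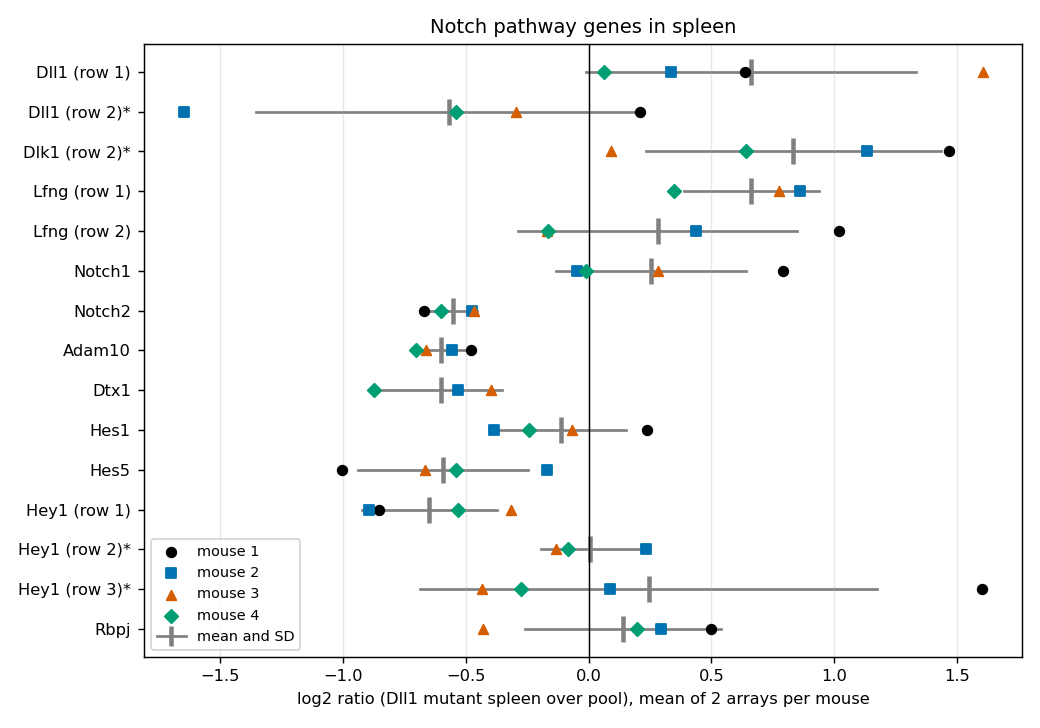
Log2 ratio of mutant spleen over pool (x axis) for rows of Notch pathway genes (y axis), with symbols for the 4 mice (mean of 2 arrays) and grey bars for mean and SD. Asterisks mark rows from the end of the table, whose names are uncertain. Notch2 and Adam10 lie below 0 in each mouse (SD 0.098 and 0.10, of means over dye orientations that differ). The first Dll1 row lies above 0 and the second, of uncertain name, on both sides of 0.

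The named rows with the smallest p on the higher side belonged to none of the gene lists. Clip4, a CAP-Gly domain protein, had 2.38, 1.18, 1.08 and 1.65 in mice 1 to 4 (mean 1.57 ± 0.59, SD, n = 4, limma adjusted p = 0.414). Prrc2b, a proline-rich coiled-coil protein, had 0.69, 1.12, 0.97 and 0.93, Fancc, of the Fanconi anaemia DNA repair pathway, had 1.14, 0.63, 0.84 and 1.25, and Numa1, which organises the mitotic spindle, had 0.99, 0.51, 0.76 and 1.04, all in their first or only row. Cfc1, an EGF-CFC co-receptor of Nodal signalling, had 0.87, 1.25, 0.71 and 1.03. The other named rows with the smallest p on this side were single rows of Ms4a19, Iqcd and Fbxo7, with means of 0.97, 1.41 and 1.08. The second rows of Cfc1, Fancc and Numa1 had means of 0.25, 0.16 and -0.05, and the other row of Fbxo7 had a mean of -0.31 over 3 mice, so that the rows of these genes differed. On the lower side, 3 of the 8 named rows with the smallest p (Fbxo32, Cdc14b and Usp2) came from the last part of the table, and the other rows of Cdc14b had means of 0.44, -0.06 and 0.36.

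The list medians differed in size between the dye orientations. Ribosomal protein genes had a median of -0.30 over the arrays with mutant RNA in Cy5 and of -1.001 over those with mutant RNA in Cy3. B cell genes had -0.08 and -0.63 and MHC class II genes -0.22 and -0.95 in the same order of dyes. The row of Lyz2 with the smallest p had -0.61, -0.64, -0.41 and -0.50 on the arrays with mutant RNA in Cy5 and -1.93, -1.90, -2.16 and -1.98 on those with mutant RNA in Cy3, so its low spread is that of means over orientations that differ. Prrc2b was of like size in both orientations, with means of 0.97 in Cy5 and 0.89 in Cy3 (1.10 and 0.91 without mouse 1). Rpl12 had means of -1.15 in Cy5 and -1.23 in Cy3, but -0.66 and -1.61 without mouse 1, whose 2 arrays differed the other way (-2.65 and -0.10). Likewise, Ms4a1 had -1.24 in Cy5 and -1.44 in Cy3, and -1.03 and -1.82 without mouse 1. No row passed an adjusted p of 0.05 for a difference between the dye orientations (limma, 874 rows lower and 944 higher at an unadjusted p under 0.05). Read as Cy5 over Cy3, the medians turned to 0.30 for ribosomal protein genes, 0.25 for B cell genes and 0.37 for MHC class II genes, and Notch2 had a mean of 0.39.

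**Figure D4:**
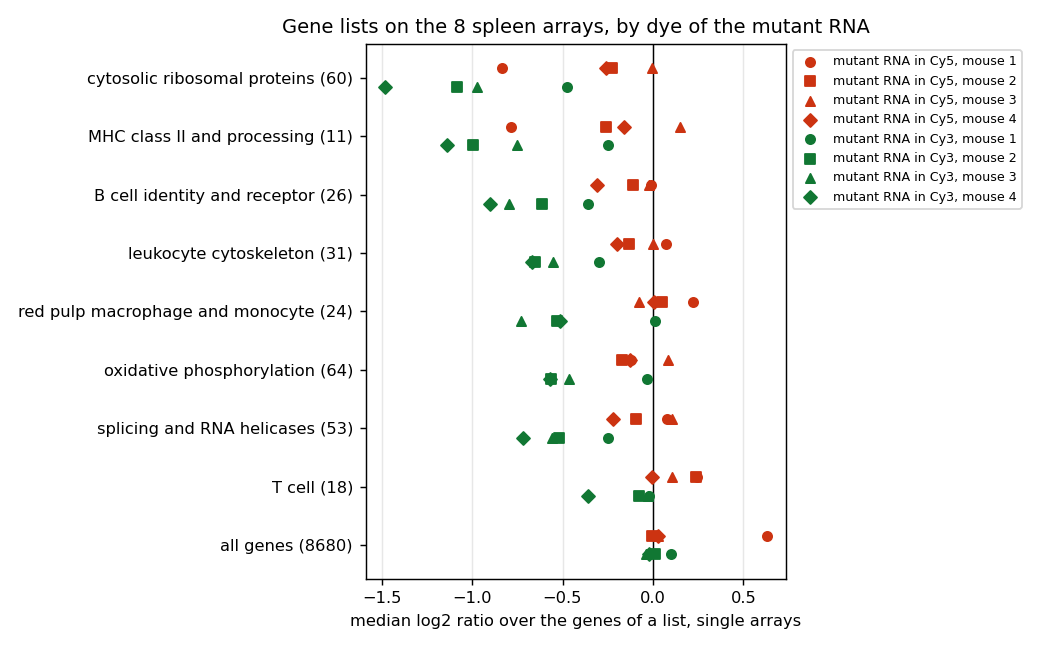
Median log2 ratio of the genes of a list (x axis) on each of the 8 spleen arrays, for 8 lists and all genes (y axis). Red symbols are arrays with mutant RNA in Cy5 and green symbols arrays with mutant RNA in Cy3, and the shape gives the mouse. Ribosomal protein medians run from -0.84 to 0.00 with mutant RNA in Cy5 and from -1.48 to -0.48 with mutant RNA in Cy3, and in mouse 1 the array with mutant RNA in Cy5 is the lower of its 2.

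To see where spleen differed from the other organs of the same mice, mutant ratios in spleen were set against those in thymus and against the mean of thymus, liver and brain. No row passed an adjusted p of 0.05 in spleen minus thymus (limma, 0 of 19402 rows, 0%) or in spleen minus the other 3 organs (0 of 18061 rows, 0%, smallest adjusted p = 0.121). With the mouse as a block the counts were 0 and 0. Of the 90 ribosomal protein rows, 57 were lower in spleen than in thymus at an unadjusted p under 0.05, against 4.27% of all rows, and 56 of 89 were lower in spleen than in the other organs, against 5.24%. Of the B cell rows, 10 of 38 and 11 of 34 were lower by the same rule. Ribosomal protein genes had a median of -0.63 in spleen, against 0.05 in thymus, -0.02 in liver and -0.37 in brain, so that brain lay on the same side as spleen. In brain, 58 of 60 of these genes were below 0, the same count as in spleen, so a low ratio of this list was not particular to spleen. B cell genes had a median of -0.43 in spleen, against -0.03 in thymus, 0.03 in liver and 0.21 in brain. Their signal over background in the other organs is unknown.

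When the comparison with the 3 other organs was limited to the 6211 rows with a value in all mice of all organs, 22 rows (0.354%) passed an adjusted p of 0.05, of which 15 were named, and all 22 were lower in spleen. In the same rows, 0 passed with the mouse as a block and 0 with any 1 mouse left out (smallest adjusted p of 0.0927 with the block and 0.114 to 0.199 without a mouse), alternatives that were added after seeing the data. The 22 included Pou2af1, whose mean ratio was -0.81 in spleen against 0.17 in thymus, 0.03 in liver and 0.77 in brain (difference -1.13 ± 0.19, SE, limma adjusted p = 0.0371). Both rows of Lyz2 (differences of -1.38 and -1.32) and Cd52, a surface glycoprotein of lymphocytes (-0.92), passed as well. In brain, where the signal over background is unknown, the 2 rows of Lyz2 had means of 1.05 and -0.02. A further 4 calls were the ribosomal proteins Rpl12, Rplp0, Rps20 and Rps7, with differences between -1.06 and -0.83, and Son, a splicing cofactor, and Unc93b1, which carries Toll-like receptors, had differences of -1.29 and -1.27. A second row of Son, with 3 mice, had a mean of 0.05 in spleen. Further calls outside these groups included Ascl2 (-0.78), the first row of Gsg1 (-0.95) and a row of Cdc14b from the last part of the table (-1.17). The other row of Gsg1, with 3 mice, had a mean of 0.41 in spleen. Over all rows, the same comparison gave adjusted p = 0.121 for Pou2af1. Ms4a1 was not among these rows, and its mean ratio was -1.34 in spleen, against -1.15 ± 1.30 (SD, n = 3) in thymus.

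**Figure D5:**
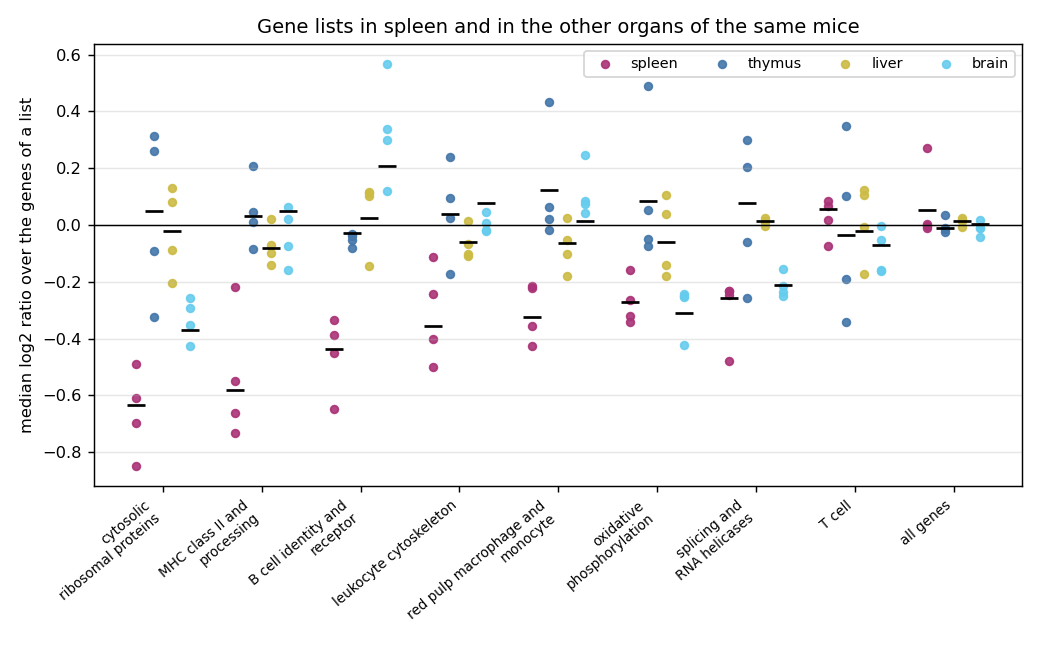
Median log2 ratio of mutant over pool (y axis) for 8 gene lists and all genes (x axis) in spleen, thymus, liver and brain. Coloured points are the 4 mice of each organ and black bars the medians of gene means. For ribosomal protein, MHC class II and B cell genes, the 4 spleen medians lie below all 12 medians of the other organs, and for T cell genes they lie among them.

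A fit in which the 4 organs shared 1 estimate of the spread called 202 rows in spleen at an adjusted p of 0.05, of which 163 (0.832%) were lower and 39 (0.199%) higher. In that fit 22 of the 90 ribosomal protein rows, 2 of 38 B cell rows and 3 of 16 MHC class II rows were called, all lower. It assumes that spleen, with a median SD over mice of 0.42 per row, varies as much as thymus (0.34), liver (0.35) and brain (0.46).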

How the data were processed

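RNA of spleen, thymus, liver and brain was measured on dual-colour cDNA arrays. Per the labels, 20 µg of total RNA were labelled indirectly with Cy3 or Cy5. The authors used a GenePix scanner and deposited a log2 ratio for every spot on each array. Normalization, background correction, the filter on weak spots and the direction of the ratio are not given in the sources used here, and no channel intensities were analysed, so the signal over background is unknown. The number of arrays limits the precision.

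Values beyond 12 in size, a single repeated extreme per array, were set to missing. The dye-swapped pair of a mouse was averaged if neither value was missing, and the mouse was the replicate. Thymus mouse 2, with 1 array, was corrected in each row for the dye effect seen in the remaining mice. Each row took the gene of the probe 11 places before it in the probe table, and 12760 of 20794 rows were named. Rows with at least 3 mice were tested against 0 with limma 3.58.1 in R 4.3.3 (intercept only, empirical Bayes moderation) and adjusted by Benjamini-Hochberg over all rows. Organs were compared by contrasts of the same ratios. The fit was tested on simulated data. The pool is shared by all arrays of an organ, and organs with the same mouse number come from the same animal, by the mouse IDs in the labels.

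Medians of a gene list are taken over genes, each the mean of its rows, with no test. The members, the 28 gene lists and the tests were chosen with earlier results of these data known. Genes named are Dll1, called rows, the 8 named rows of smallest p in each direction with the same sign in all 4 mice, the 5 genes of largest mean ratio of a list, and members of the B cell, plasma cell, MHC class II and Notch lists; Btk, Rfx5, Rfxank and the like are such members. Alternatives were leaving out each mouse, a reading as Cy5 over Cy3, centring and scaling of arrays, other handling of extreme, lone and missing values, robust moderation, a dye term, a spread shared by the organs, each dye orientation alone, other names and mouse blocks. RefSeq promoters (GRCm38.p6) were searched upstream of the start.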

Additional observations from a re-analysis of the deposited data

Results flagged for a closer look

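A part of the 28 gene lists, and all genes together, were searched for a mouse whose median stood far from those of the other 3. Such a gap was found in 3 of the lists searched and over all genes. Over all genes, mouse 1 had a median of 0.27, against -0.003, -0.009 and 0.005 in mice 2, 3 and 4. Genes of the exocrine pancreas had 0.60 in mouse 1, against -0.53, -0.41 and -0.49 in the others, and genes of the Notch nuclear complex and targets had 0.16 in mouse 1, against -0.12, -0.08 and -0.10. Splicing factors and RNA helicases had -0.48 in mouse 4, against -0.23, -0.23 and -0.25. Lists outside that search had such a gap too. Dendritic cell genes had 1.12 in mouse 1, against -0.007, -0.08 and -0.08 in the others. Immediate early and dissociation stress genes had -0.60 in mouse 1, against -0.09, -0.12 and -0.05. Single rows were searched for a part of the named genes only. Among these, Cox7a2, a subunit of cytochrome c oxidase, had such a gap, with -1.95 in mouse 1 and -0.61, -0.45 and -0.69 in mice 2 to 4. Named rows outside the search had one as well, such as Cd8b1 with 2.88 in mouse 1 and -0.21, -0.355 and -0.29 in mice 2 to 4. Chance gives such a gap in about 1 in 20 groups of 4.

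B cell genes had a median below 0 in each of the 4 mice in spleen (-0.43 over gene means) and above 0 in each of the 4 mice in brain (0.21). Genes of red pulp macrophages and monocytes had -0.32 in spleen and 0.016 in brain, again with each mouse on opposite sides. These differences between list medians were not tested. Without channel intensities, the signal of these genes over background in brain is unknown.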

How the results depend on the processing

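The count of rows past an adjusted p of 0.05 in spleen stayed at 0 without any 1 mouse and under every alternative run except the spread shared by the organs (202 rows). At an unadjusted p under 0.05, lower rows numbered 583 to 1253 and higher rows 741 to 1292 when a mouse was left out, and 649 and 448 when fewer rows, those with all 4 mice, were tested; the shared spread gave 1736 higher rows. Lower rows numbered 609 without mouse 2 and 583 without mouse 4, the only omissions that moved that count by over 1.5 times. Spleen minus the other organs called 0 rows, 0 to 1 rows without 1 mouse (1 without mouse 3 and 1 without mouse 4) and 0 rows with the mouse as a block, as did spleen minus thymus with the block (0 rows). In the 6211 rows with all mice it called 22 rows, and in these same rows 0 without any 1 mouse and 0 with the mouse as a block, which was chosen after seeing the data.

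The direction of the list medians depends on how the ratio was formed. The sign of the repeated extreme value followed the dye of the mutant RNA on every array. A ratio of Cy5 over Cy3 would make the pool the weaker sample at those spots on every array. Read as Cy5 over Cy3, the medians were 0.25 (B cell), 0.37 (MHC class II), 0.30 (ribosomal proteins), 0.25 (macrophage), 0.21 (splicing), 0.18 (oxidative phosphorylation), 0.17 (proteasome), 0.26 (cytoskeleton) and 0.21 (MHC class I), in place of values below 0. Splicing genes had 0.041 on arrays with mutant RNA in Cy5 alone. With names as listed, medians were 0.053 (ribosomal proteins), 0.065 (splicing), 0.081 (oxidative phosphorylation), 0.11 (proteasome), 0.14 (cytoskeleton) and 0.024 (MHC class I). The B cell median was -0.48 to -0.34 without 1 mouse, -0.14 with lone arrays kept, -0.075 with mutant RNA in Cy5 alone, -0.63 with mutant RNA in Cy3 alone and -0.025 with names as listed. Of 78 rows of genes given with their values, 59 changed sign as Cy5 over Cy3, 12 with mutant RNA in Cy5 alone, 7 with Cy3 alone, 5 with lone arrays kept and 0 to 3 without 1 mouse. The causes were not tested.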
